A study of Mus musculus with 15 samples.

Results

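CA1 pyramidal neurons are the excitatory output neurons of the CA1 field of the hippocampus. They receive the Schaffer collaterals of CA3 and send axons to the subiculum and the cortex, and their synapses are a classical site of long-term potentiation. Their nuclei were chosen here by counts of unique molecular identifiers (UMIs, each standing for 1 captured RNA molecule) in single-nucleus RNA-seq of the dorsal hippocampal formation (dHF). A nucleus was a member where it had at least 1000 detected genes, at least 1 UMI of Slc17a7 (the vesicular glutamate transporter VGLUT1) and at least 3 UMIs of Fibcd1 plus Mpped1, both markers of CA1. It was also required to have at most 1 UMI of Gad1 plus Gad2 (GABA synthesis), at most 1 UMI of Prox1 (dentate granule neurons) and at most 2 UMIs of Cd109 plus Nectin3 (CA3). Of 134019 barcodes, 4488 were members, and 124527 barcodes had at least 1000 genes.

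The nuclei came from 15 female C57BL6/J mice. There were 6 virgin nulliparous mice (NP), 4 with reproductive experience (control RE, ControlPP in the labels) and 5 whose reproductive experience included stress after birth (stress RE, StressPP in the labels). Reproductive experience spanned mating, pregnancy, birth, lactation and contact with pups until weaning, and the stress was limited nesting with daily separation from the pups in later lactation. The NP mice were matched for age, and the age of the mice at nuclear isolation was not given in the sources used here. Each library held the pooled punches of 1 mouse, and the punches also took in parts of cortex, thalamus and ventral hippocampus. By the labels, batch 1 held 2 NP mice and 1 stress RE mouse but lacked control RE, and batches 2 and 3 held every group. The study's methods describe all groups as present in each batch, which differs from these labels, and the labels were used. The comparisons ask whether reproductive experience, with or without stress, left a lasting change in these neurons.

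Each mouse gave 101 to 586 members, with 1470279 to 10731041 UMIs in all. No 2 libraries shared a barcode among their members. Levels are given as CPM, the UMIs of a gene over all UMIs of the named nuclei of a mouse, on the usual CPM scale. Levels of a single sub-cluster of members, and those around the threshold of the rule, pool the nuclei of all mice. Those pooled levels carry no spread over mice. UMIs were counted at the 3′ end of transcripts, so a level is compared between nuclei for the same gene and never between genes.

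The rule was met mostly through Mpped1, a metallophosphoesterase gene. Of the 4488 members, 1686 (37.6%) had no UMI of Fibcd1, which encodes an acetyl group-binding receptor, and 47 (1.05%) had no UMI of Mpped1. Fibcd1 lies at chr2:31813290-31846005 on the minus strand of GRCm38 and Mpped1 at chr15:83779467-83858494 on the plus strand. A pair of CA1 markers that the rule did not use are Wfs1 (wolframin, a protein of the endoplasmic reticulum), at chr5:36966104-36989205 on the minus strand, and Man1a (a Golgi mannosidase), at chr10:53904785-54076609 on the minus strand. Since the rule chose the nuclei by their RNA, the levels that follow are a description with no test.

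Members without Fibcd1 carried less of the other CA1 markers and more of the markers of neighbouring fields. Wfs1 was at 34.5 ± 18.6 CPM (mean ± SD, n = 15 mice) in members without a UMI of Fibcd1 and at 61.6 ± 14.2 CPM in those with one, lower without Fibcd1 in 14 of 15 mice. Zbtb20, a transcription factor needed for the CA1 fate, was at 1336 ± 525 CPM without Fibcd1 and at 2737 ± 309 CPM with it, lower in 15 of 15 mice. Tshz2, a transcription factor gene of the subiculum and of some cortical neurons, was at 718 ± 651 CPM without Fibcd1 and at 39 ± 39.2 CPM with it. The subiculum marker Fn1 (fibronectin) was higher without Fibcd1 in 14 of 15 mice, and Tshz2 and Rxfp1 (a relaxin receptor) in 15 of 15.

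Around the threshold of the rule the marker levels changed by degrees. The 1183 nuclei that met every other criterion but had 2 UMIs of Fibcd1 plus Mpped1 carried Wfs1 at 40.7 CPM and Man1a at 419.8 CPM. The 1075 members with exactly 3 UMIs carried Wfs1 at 54.6 CPM and Man1a at 491 CPM. In the 15991 nuclei with neither gene, Wfs1 was at 6.05 CPM. The nuclei just outside had fewer UMIs, with a median of 11219 against 12800 just inside.

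Clustering the members on their variable genes gave 13 sub-clusters, and the CA1 label held for 5 of them. Sub-clusters 3, 4, 5, 6 and 9 together held 3312 nuclei (73.8% of members). Each carried Wfs1 at 57.2 to 81.5 CPM and Zbtb20 at 2115 to 3312 CPM, markers that the rule did not use. Fibcd1, which it did use, was at 68.9 to 134 CPM and says nothing about the label. They are called CA1-type here and were picked out after their marker levels had been seen.

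The other 8 sub-clusters held 1176 nuclei (26.2% of members). Sub-cluster 1 (317 nuclei) was led by Fn1 at 267 CPM and carried the subiculum markers Rxfp1 at 402 CPM and Tshz2 at 2025 CPM, while Wfs1 was at 2.36 CPM. Of its nuclei, 91.5% had no UMI of Fibcd1 and so met the rule through Mpped1 alone, which does not bear on the label. Sub-cluster 7 (127 nuclei) was led by Pdzrn3, a ubiquitin ligase gene, and carried Tshz2 at 2238 CPM. Sub-cluster 8 (309 nuclei) was led by Ccn2, Cplx3 and Moxd1 and carried the cortical markers Foxp2 at 533 CPM and Tle4 at 618 CPM.

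Sub-cluster 10 was small, with 39 nuclei, and carried almost no Wfs1 (2.03 CPM). It was led by Chrnb4 (a nicotinic receptor subunit), Tac2 (neurokinin B), Irx1, Kcng4 and Ano1 (a calcium-activated chloride channel). The thalamic and habenular markers Tcf7l2, at 696 CPM, and Lef1, at 254 CPM, were both present. Fibcd1 was at 241 CPM in these nuclei, above its level in every CA1-type sub-cluster, and Mpped1 was at 58.8 CPM. Sub-cluster 11 (128 nuclei) was mixed, with Wfs1 at 19.5 CPM, and 40.6% of its nuclei were marked as doublets by their Scrublet score.

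The last 3 sub-clusters carried CA1 markers together with glial genes. Sub-cluster 2 (167 nuclei) had Wfs1 at 51.9 CPM and the myelin gene Mbp at 552 CPM. Sub-cluster 12 (48 nuclei) had the astrocyte glutamate transporter gene Slc1a3 at 318 CPM, and sub-cluster 13 (41 nuclei) had the microglial receptor gene Csf1r at 117 CPM. By Scrublet score 83.8%, 75% and 58.5% of their nuclei were marked as doublets, and at most 0.465% of those of any CA1-type sub-cluster. The barcodes with the highest scores were marked, and their share in each library was set by its number of barcodes. Doublets were kept in the main analysis and left out in an alternative.

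**Figure D1:**
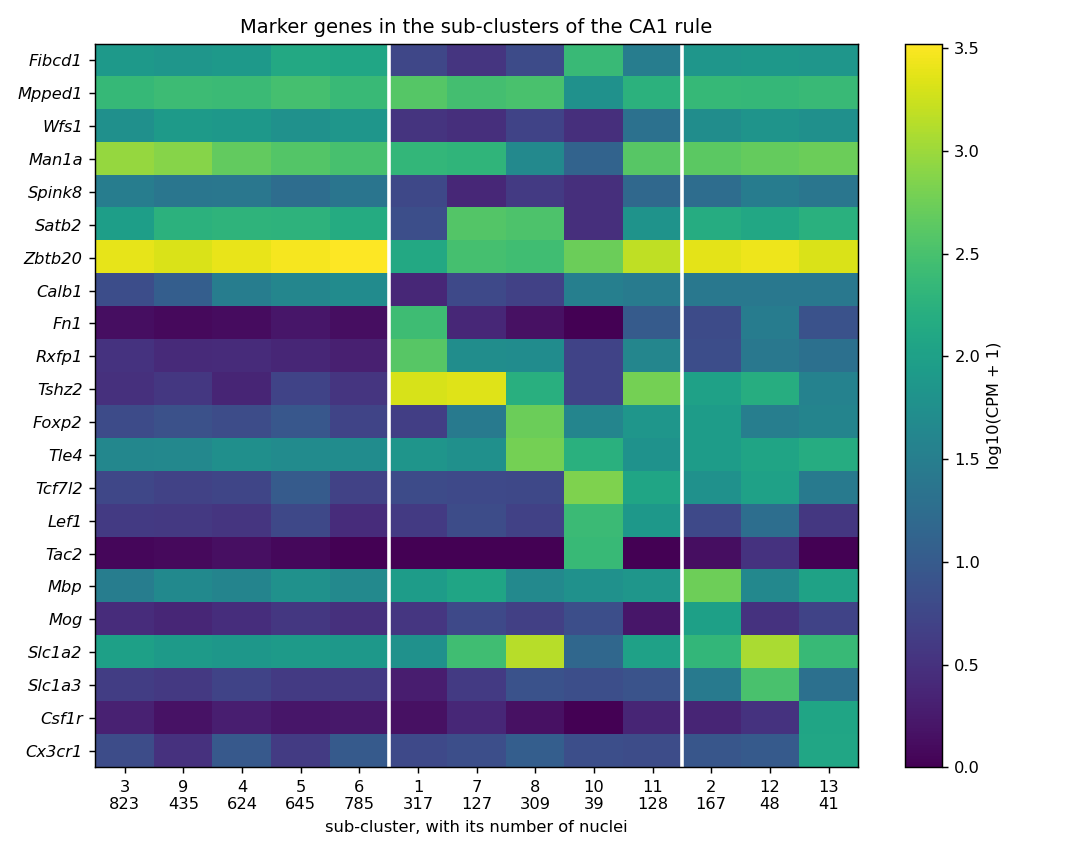
Level of marker genes (rows) in the 13 sub-clusters (columns), as log10(CPM + 1) over the summed nuclei. The columns run from the 5 CA1-type sub-clusters (3, 9, 4, 5 and 6) through those led by genes of other neurons (1, 7, 8, 10 and 11) to those with glial genes (2, 12 and 13), and Wfs1 is at 2.36 CPM in sub-cluster 1 and 2.03 CPM in sub-cluster 10 against 57.2 to 81.5 CPM in the CA1-type sub-clusters.

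The share of members in CA1-type sub-clusters varied widely between mice. Among NP mice it was 57.2% at the lowest, 75.9% at the median and 87.2% at the highest. In control RE mice 66, 72, 87 and 88 it was 69.4%, 78.6%, 47% and 86.3%. In stress RE mice 43, 70, 75, 77 and 90 it was 90.9%, 65.2%, 32.5%, 71.3% and 83.5%. The groups overlapped, and control RE mouse 87 and stress RE mouse 75, both of batch 3, had the lowest shares of the 15 mice. The same 2 mice had the lowest Wfs1 over all members, at 11.3 and 27.9 CPM against 34.6 to 68.3 CPM in the other 13 mice. Over the CA1-type nuclei alone Wfs1 was at 73 CPM in stress RE mouse 75 and stayed low in control RE mouse 87, at 24.2 CPM. Stress RE mouse 75 also had the summed level of 4 astrocyte markers at 847 CPM, against 98.2 to 293 CPM in the others. Of its 126 members, 65 lay in sub-cluster 8 and 1 in sub-cluster 12. Over all mice, sub-cluster 8 carried the astrocyte marker Slc1a2 at 1384 CPM and Slc1a3 at 6.74 CPM. The part of the sub-clusters that are not CA1-type in the results was examined by leaving them out.

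**Figure D2:**
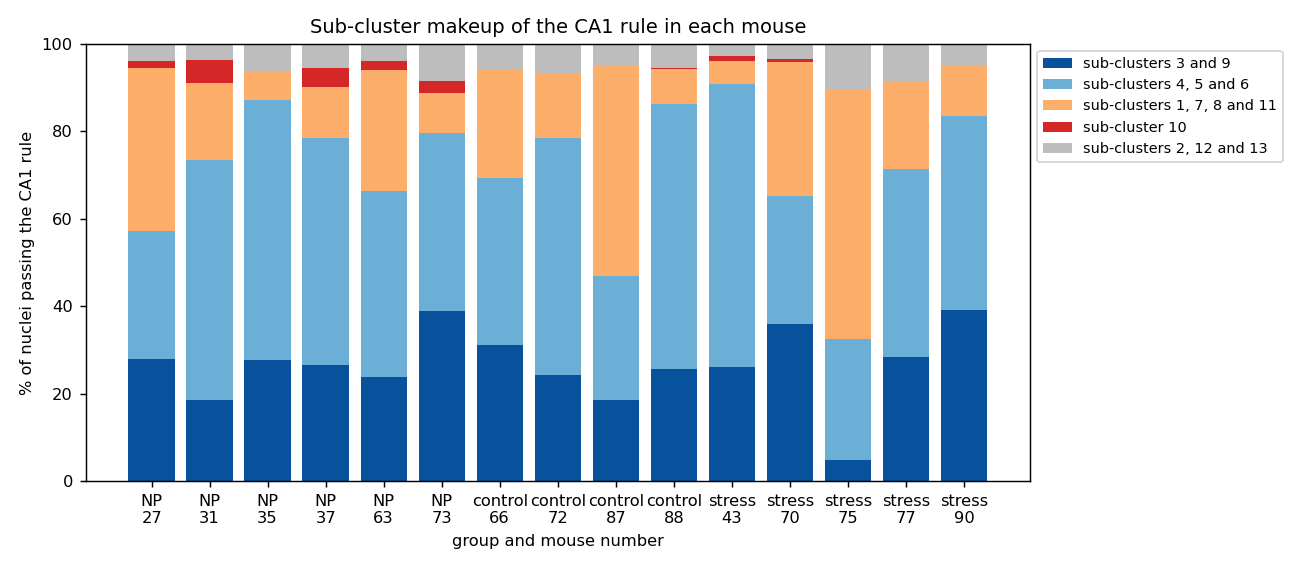
Share of each mouse's members (y axis, %) by kind of sub-cluster, one stacked bar per mouse in the 3 groups. The CA1-type share is smallest in stress RE mouse 75 (32.5%) and control RE mouse 87 (47%) and largest in stress RE mouse 43 (90.9%).

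Among the CA1-type nuclei, sub-clusters divided by Calb1, the gene of the calcium buffer calbindin, which marks superficial CA1 neurons. Sub-clusters 3 and 9 (1258 nuclei) had Calb1 at 6.65 ± 4.02 CPM and sub-clusters 4, 5 and 6 (2054 nuclei) had it at 40.3 ± 6.71 CPM (mean ± SD, n = 14 mice with at least 10 nuclei on each side). Ndst4, a heparan sulphate sulphotransferase gene, was at 826 ± 118 CPM in the former and at 132 ± 24.4 CPM in the latter. Man1a was at 823 ± 151 against 374 ± 87.5 CPM, and the collagen gene Col11a1 at 264 ± 70.05 against 34.6 ± 15.1 CPM. In all 14 mice Calb1 was lower, and the other 3 genes higher, in sub-clusters 3 and 9 pooled. Ndst4 and Col11a1 were carried mostly by sub-cluster 3, since Ndst4 was at 1122 CPM in sub-cluster 3, 309.9 CPM in 9 and 216 CPM in 6. Col11a1 was at 367 CPM in sub-cluster 3 and 43.4 CPM in 9, below its 53.2 CPM in sub-cluster 6.

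Wfs1 did not follow that division, at 63.1 ± 10.8 CPM in sub-clusters 3 and 9 and 64.9 ± 17.8 CPM in 4, 5 and 6. The receptors for corticosteroids ran in opposite directions. Nr3c2, the mineralocorticoid receptor, was at 1995 ± 156 CPM in sub-clusters 3 and 9 and at 1269 ± 86.5 CPM in 4, 5 and 6, higher in 14 of 14 mice. Nr3c1, the glucocorticoid receptor, was at 126 ± 14.6 and 161 ± 25.6 CPM, lower in 13 of 14 mice. Tenm3, a teneurin that guides the wiring of CA1 to the subiculum, was at 3108 CPM in sub-cluster 6 and at 195 CPM in sub-cluster 4. These genes helped to form the sub-clusters, so the values carry no test.

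The balance of these sub-clusters differed between mice of the same group. Sub-clusters 3 and 9 made up 14.6% of the CA1-type nuclei of stress RE mouse 75, which had 41 such nuclei, and 25.3% to 55.1% in the other mice. Sub-cluster 5 held 69.8% of the CA1-type nuclei of NP mouse 31 and 41.7% of those of stress RE mouse 70, both of batch 1. In the other 13 mice, 1 of them of batch 1, it held 0% to 34.9%.

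Beside nuclei chosen by like rules for CA3 (4702 nuclei) and dentate granule neurons (13620 nuclei) of the same mice, levels are given for channels, receptors and kinases. The rules set these classes apart, so the levels are a description, each a mean ± SD over 15 mice. The CA1 side had been freed of the other sub-clusters, while the CA3 and dentate granule nuclei were taken by rule alone. Of 6 cortical excitatory markers, 4 were at least 2-fold lower in CA1-type than in CA3 nuclei and 0 higher. Of 5 oligodendrocyte markers, 5 were so against dentate granule nuclei and 0 higher. The part of unequal purity in the counts and levels was not tested. A gene is counted as 2-fold higher or lower only where the higher class reached 10 CPM. Of the 8948 genes at 10 CPM or more in CA1-type or CA3 nuclei, 5.87% were at least 2-fold higher and 7.49% at least 2-fold lower in CA1-type nuclei. Against dentate granule nuclei these shares were 5.89% and 10.7% of 9264 genes, and the counts that follow stand beside them. Pex5l (TRIP8b), the auxiliary subunit of HCN channels, was at 2629 ± 245 CPM in CA1-type nuclei, 187 ± 30.3 CPM in CA3 nuclei and 389.5 ± 45.6 CPM in dentate granule nuclei. Kcnh7, an ERG-type potassium channel gene, was at 2803 ± 415 against 81.4 ± 22.3 and 304 ± 24.8 CPM in the same order. Both genes were higher in the CA1-type nuclei in 15 of 15 mice. Pex5l came from the list of CA1 markers and not from that of channels, so its count describes a gene chosen as high in CA1. Pex5l was not particular to CA1-type nuclei, since sub-cluster 1, which carried subiculum markers, had it at 3642 CPM. Nuclei of the subiculum were not part of this comparison.

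Of 28 potassium and HCN channel genes, 27 of which reached 10 CPM in CA1-type or CA3 nuclei, 5 were at least 2-fold higher and 7 at least 2-fold lower in CA1-type than in CA3 nuclei. Kcnd2 (Kv4.2), which carries the dendritic A-type current, was at 6019 ± 763 against 2605 ± 273 CPM in CA3. Its relative Kcnd3 (Kv4.3) was on the opposite side, at 46.9 ± 22.8 against 297 ± 49.3 CPM. Kcnc1 (Kv3.1), a fast delayed rectifier, was also lower, at 19.4 ± 5.00 against 111 ± 18.9 CPM.

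Of 21 glutamate receptor genes, 18 of which reached 10 CPM in CA1-type or CA3 nuclei and 21 in CA1-type or dentate granule nuclei, none was 2-fold higher in CA1-type nuclei than in either class, while 6 were at least 2-fold lower than in CA3 and 12 than in dentate granule nuclei. Grik4, a kainate receptor subunit of mossy fibre synapses, was at 42.6 ± 19.1 against 1600.5 ± 206 CPM in CA3. The NMDA receptor subunit Grin2a was higher in CA1-type nuclei in 15 of 15 mice, at 5618 ± 439 against 3299 ± 268 and 4077 ± 425 CPM in CA3 and dentate granule nuclei, by less than 2-fold.

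Of 29 genes of postsynaptic signalling for long-term potentiation, all 29 reached 10 CPM in CA1-type or dentate granule nuclei. Of these, 5 were at least 2-fold higher and 5 at least 2-fold lower in CA1-type than in dentate granule nuclei. In CA1-type or CA3 nuclei 28 reached 10 CPM, and 3 were higher and 1 lower than in CA3 by that measure. Adcy1 and Adcy8, adenylyl cyclases stimulated by calcium, were at 256 ± 39.3 against 63.6 ± 12.3 CPM and at 186 ± 24.4 against 36.2 ± 10.7 CPM. Prkcb, a protein kinase C gene, was at 1591 ± 133 against 747 ± 50.01 CPM. Adcy1 was higher still in dentate granule nuclei, at 513 ± 34.9 CPM. Of 12 GABA-A receptor subunits, 10 of which reached 10 CPM in CA1-type or CA3 nuclei, 3 were at least 2-fold higher and 0 at least 2-fold lower than in CA3. Gabrg3 was among the 3, at 591 ± 62.3 against 92.5 ± 25.5 CPM. Of 21 synaptic adhesion genes, 4 were higher and 4 lower than in CA3 by that measure. Lrrtm4, a postsynaptic organizer, was at 238 ± 118 against 1255 ± 110.2 and 8357 ± 944 CPM in CA3 and dentate granule nuclei.

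**Figure D3:**
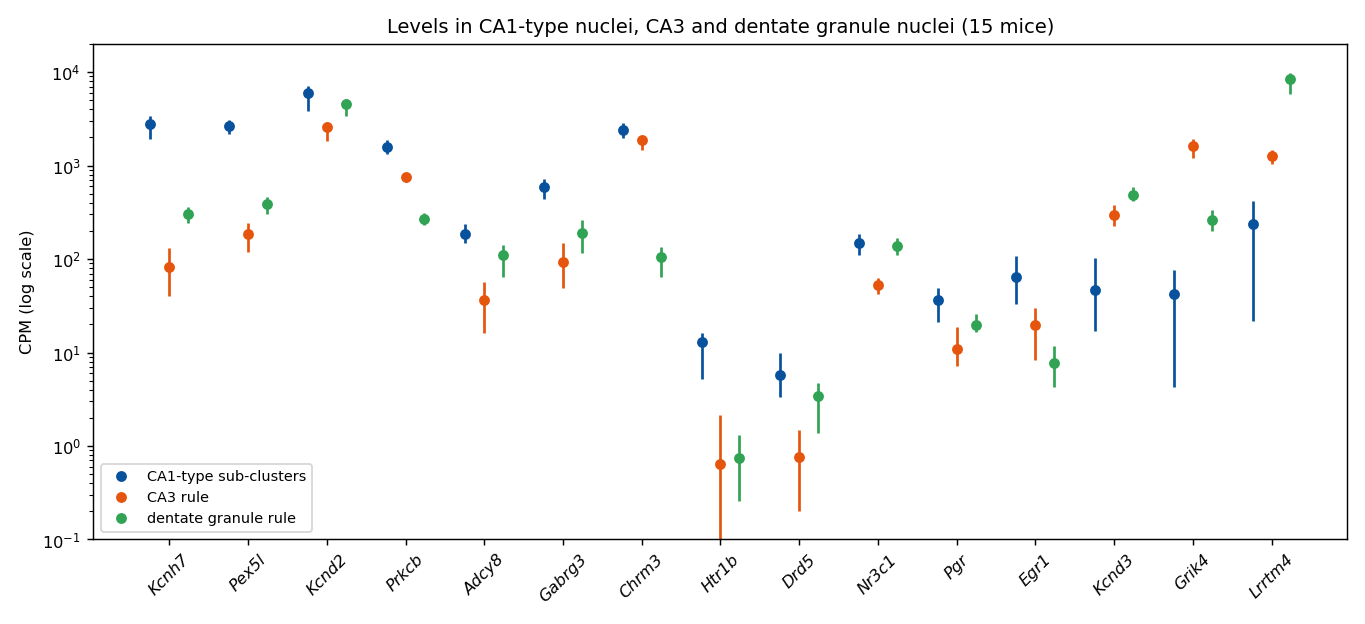
Level of selected genes (CPM, log axis) in CA1-type, CA3 and dentate granule nuclei; points are means of 15 mice and lines run from the lowest to the highest mouse, with libraries at 0 drawn at the foot of the axis. Kcnh7 lies at 2803 CPM in CA1-type nuclei against 81.4 CPM in CA3, and Grik4 at 42.6 against 1600.5 CPM.

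Of 18 hormone receptor genes, 11 of which reached 10 CPM in CA1-type or CA3 nuclei, 4 were at least 2-fold higher and 1 at least 2-fold lower in CA1-type than in CA3 nuclei. Of 25 monoamine and acetylcholine receptor genes, 11 of which reached 10 CPM in either class, 3 were higher and 2 lower by that measure. The genes given here were chosen after their values were seen. The progesterone receptor gene Pgr was at 36.4 ± 6.46 against 10.8 ± 3.16 and 19.9 ± 2.41 CPM in CA3 and dentate granule nuclei. The serotonin receptor gene Htr1a was at 10.9 ± 3.43 against 0.767 ± 0.372 and 1.81 ± 0.773 CPM, and in oligodendrocyte nuclei, which should lack it, at 1.03 CPM. Drd5, a dopamine receptor of the D1 class, was at 5.81 ± 1.67 against 0.763 ± 0.335 and 3.39 ± 0.853 CPM, with 1.28 CPM in oligodendrocyte nuclei. Drd1 and Drd2 were at 0.159 ± 0.192 and 0.329 ± 0.578 CPM in CA1-type nuclei, below their levels of 2.79 and 4.43 CPM in oligodendrocyte nuclei, and are read as background.

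No difference between the groups in the share of nuclei that met the rule passed the test, and the smallest p these group sizes allow is 0.00952, 0.0159 and 0.00433 for control RE against NP, stress RE against control RE and stress RE against NP. Of the nuclei with at least 1000 genes, members made up 1.21% at the lowest, 3.25% at the median and 4.28% at the highest NP mouse. In control RE mice 66, 72, 87 and 88 they made up 4.68%, 4.35%, 1.70% and 4.41%, and in stress RE mice 43, 70, 75, 77 and 90 3.21%, 8.12%, 1.14%, 7.43% and 3.93%. The highest values, in stress RE mice 70 and 77, and the lowest, in stress RE mouse 75, came from the same group, and all groups overlapped.

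The mean share was 2.97 ± 1.06% for NP (SD, n = 6 mice), 3.79 ± 1.40% for control RE (n = 4) and 4.77 ± 2.94% for the stress RE mice (n = 5), so that differences are in percentage points. The mean of control RE minus that of NP was 0.813 points (in a two-sided exact permutation test over mice p = 0.333, adjusted over 3 comparisons 0.5). Stress RE minus control RE was 0.981 points (exact permutation p = 0.587, adjusted 0.587) and stress RE minus NP was 1.79 points (exact permutation p = 0.221, adjusted 0.5). Counting only the CA1-type nuclei, the same 3 differences were 0.613, 0.616 and 1.23 points (exact permutation p = 0.410, 0.619 and 0.195, unadjusted). Within batches 2 and 3 the difference over all members of control RE from NP was 2.05 and 0.447 points, that of stress RE from control RE 1.30 and -1.01 points, and that of stress RE from NP 3.35 and -0.567 points. Without control RE mouse 87 the first difference was 1.51 points (exact permutation p = 0.0238, unadjusted and the smallest that the remaining mice allow). It was -0.177 points where members needed 5 UMIs of Fibcd1 plus Mpped1. With nuclei thinned to 5000 UMIs the 3 differences were -0.208, 0.264 and 0.0563 points, and with at least 2 UMIs of Fibcd1 alone they were -0.268, 0.555 and 0.287 points, in the order control RE against NP, stress RE against control RE and stress RE against NP. The thinned set held only 17 to 107 members a mouse, and nuclei with fewer than 5000 UMIs were left out of it.

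**Figure D4:**
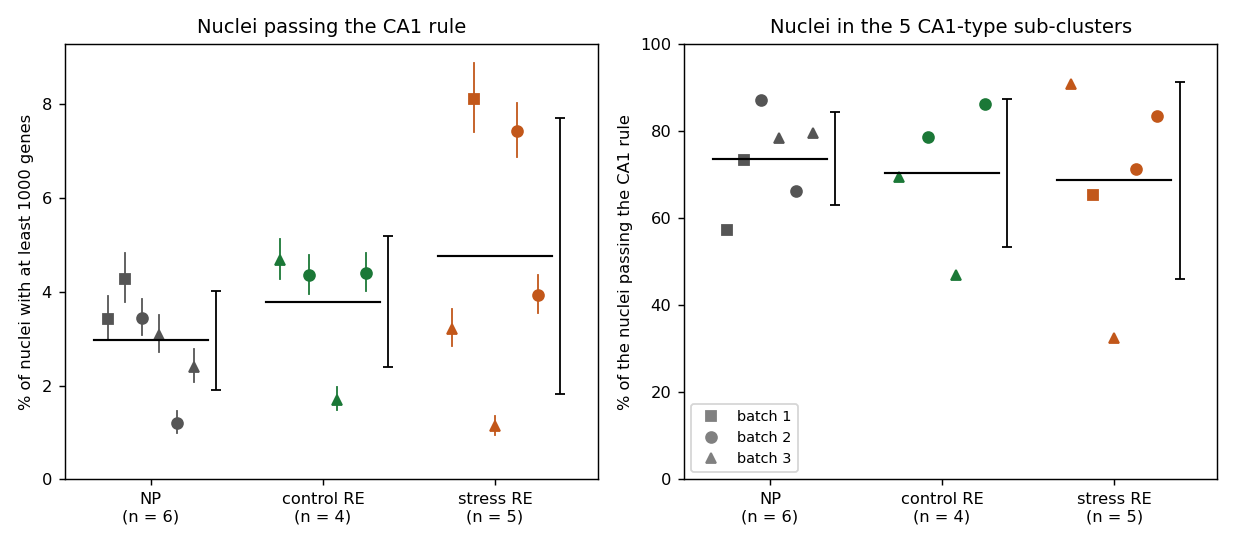
Share of nuclei with at least 1000 genes that met the rule (left, %, with the 95% Wilson interval for counting error) and share of these members that lay in the 5 CA1-type sub-clusters (right, %), one point per mouse, with marker shape for batch and mean ± SD per group. Stress RE mice range from 1.14% to 8.12% on the left and span the other groups.

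The number of UMIs per member did not pass the test either. Its median ranged over mice from 10986 to 20437, with 15992 ± 2972 for NP, 13788 ± 1653 for control RE and 16293 ± 3101 for the stress RE mice (mean ± SD over mice). Control RE differed from NP by -2203 UMIs (exact permutation p = 0.238, adjusted 0.357), stress RE from control RE by 2505 (exact permutation p = 0.175, adjusted 0.357) and stress RE from NP by 301 (exact permutation p = 0.861, adjusted 0.861). Within batches 2 and 3 these differences were -2729.8 and -4255, 4226 and 212, and 1496 and -4043 UMIs.

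By edgeR no gene passed an adjusted p of 0.05 in any comparison of the groups, and DESeq2 called up to 3. The UMIs of the members were summed per mouse and 13541 genes were tested with edgeR's quasi-likelihood test, which called 0 genes (0% of those tested) for control RE against NP, for stress RE against control RE and for stress RE against NP. At an unadjusted p under 0.05 there were 467 genes (3.45%), 135 genes (0.997%) and 511 genes (3.77%). Over the CA1-type nuclei alone edgeR again called 0 genes, with 416 (3.28%), 175 (1.38%) and 326 (2.57%) at an unadjusted p under 0.05. With members chosen by at least 2 UMIs of Fibcd1 alone, edgeR called 0 of 11453 genes in each comparison. There 915 (7.99%), 187 (1.63%) and 810 (7.07%) had an unadjusted p under 0.05. The smallest adjusted p by edgeR was then 0.0675 for control RE against NP and 0.0702 for stress RE against NP. Of 19404 genes, DESeq2 called 3 (0.0155%) for control RE against NP, 0 (0%) for stress RE against control RE and 1 (0.00515%) for stress RE against NP.

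The genes that DESeq2 called had 19.99% to 83.9% of their UMIs in the 39 nuclei of sub-cluster 10. Trpm3, a cation channel gene at chr19:22139046-22995410 on the plus strand, was at 218 CPM at the lowest, 396 CPM at the median and 715 CPM at the highest in NP mice. It was at 101, 69.2, 179 and 140.0 CPM in control RE mice 66, 72, 87 and 88, below every NP mouse (as for 0.835% of the genes tested), and at 192, 150.4, 233, 90.3 and 87.6 CPM in stress RE mice 43, 70, 75, 77 and 90. Control RE against NP gave a log2 fold change of -1.67 with an adjusted p of 1.00 by edgeR and 0.0108 by DESeq2.

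Sub-cluster 10 held 33 of 1259 members in NP (2.62%, in 5 of 6 mice), 1 of 1484 in the control RE mice and 5 of 1745 in the stress RE mice. With these nuclei left out, DESeq2 called 0 genes (0%) in each of the 3 comparisons, with 482, 192 and 580 at an unadjusted p under 0.05. Over the CA1-type nuclei it also called 0 genes, with 362, 124 and 287. These 39 nuclei held 35.3% of all Trpm3 UMIs of the members, 48.4% of those of Ccdc141, 83.9% of those of the long noncoding RNA gene D130009I18Rik and 19.99% of those of Vav3, beside 24.2%, 17.8%, 9.76% and 50.6% in the CA1-type nuclei. Over the CA1-type nuclei alone, the log2 fold change of Trpm3 in control RE was -0.28 and its groups overlapped, while it was -0.72 without sub-cluster 10 alone. D130009I18Rik went from -4.40 over all members to -1.61 without sub-cluster 10. It did not pass edgeR's filter on low counts over the CA1-type nuclei. Ccdc141, a gene of a coiled-coil protein, went from -2.15 over all members to -0.61 without sub-cluster 10 and to -0.93 over the CA1-type nuclei. Vav3, an exchange factor for small GTPases that DESeq2 called in stress RE against NP, went from -1.49 to -1.13 without sub-cluster 10, where DESeq2 gave an adjusted p of 0.151, and to -0.43 over the CA1-type nuclei. There it was at 50.1 ± 10.7 CPM for NP and 35.8 ± 6.16 CPM for the stress RE mice (unadjusted p = 0.00726, adjusted p = 1.00 by edgeR), and the groups overlapped. In the same nuclei and comparison the thalamic and habenular markers, none past the test, had a median log2 fold change of -1.21 (3 of 3 lower), with Tcf7l2 at -1.24 and Lef1 at -1.21, and their part in the Vav3 difference was not tested.

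Per2, a core gene of the circadian clock at chr1:91415982-91459324 on the minus strand, had 0.395% of its UMIs in sub-cluster 10 and 72.4% in the CA1-type nuclei. It was at 42.8 CPM at the lowest, 47.4 CPM at the median and 55.1 CPM at the highest in NP mice. It was at 35.8, 35.9, 35.6 and 31.7 CPM in control RE mice 66, 72, 87 and 88 and at 33.7, 30.4, 26.5, 30.4 and 38.2 CPM in stress RE mice 43, 70, 75, 77 and 90. All 9 mice with reproductive experience lay below all 6 NP mice, and the control RE and stress RE mice overlapped. Of the genes tested, 14 (0.103%) lay apart in this way, and Per2 was taken up for its small p. The time of day at which the tissue was taken was not given in the sources used here. Both comparisons with NP share the same NP mice. Stress RE against NP did not pass the test (log2 fold change -0.50, SE 0.109, unadjusted p = 3.1e-04, adjusted p = 1.00 by edgeR). Over the CA1-type nuclei the log2 fold change was -0.51, and with batch as a term -0.50. In control RE against NP, Per2 was not among the 10 genes with the smallest p. Its relative Per1 did not pass in any comparison. Per1 was lower at an unadjusted edgeR p under 0.05 in stress RE against NP, over all members and over the CA1-type nuclei. In control RE against NP this held over the CA1-type nuclei only.

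**Figure D5:**
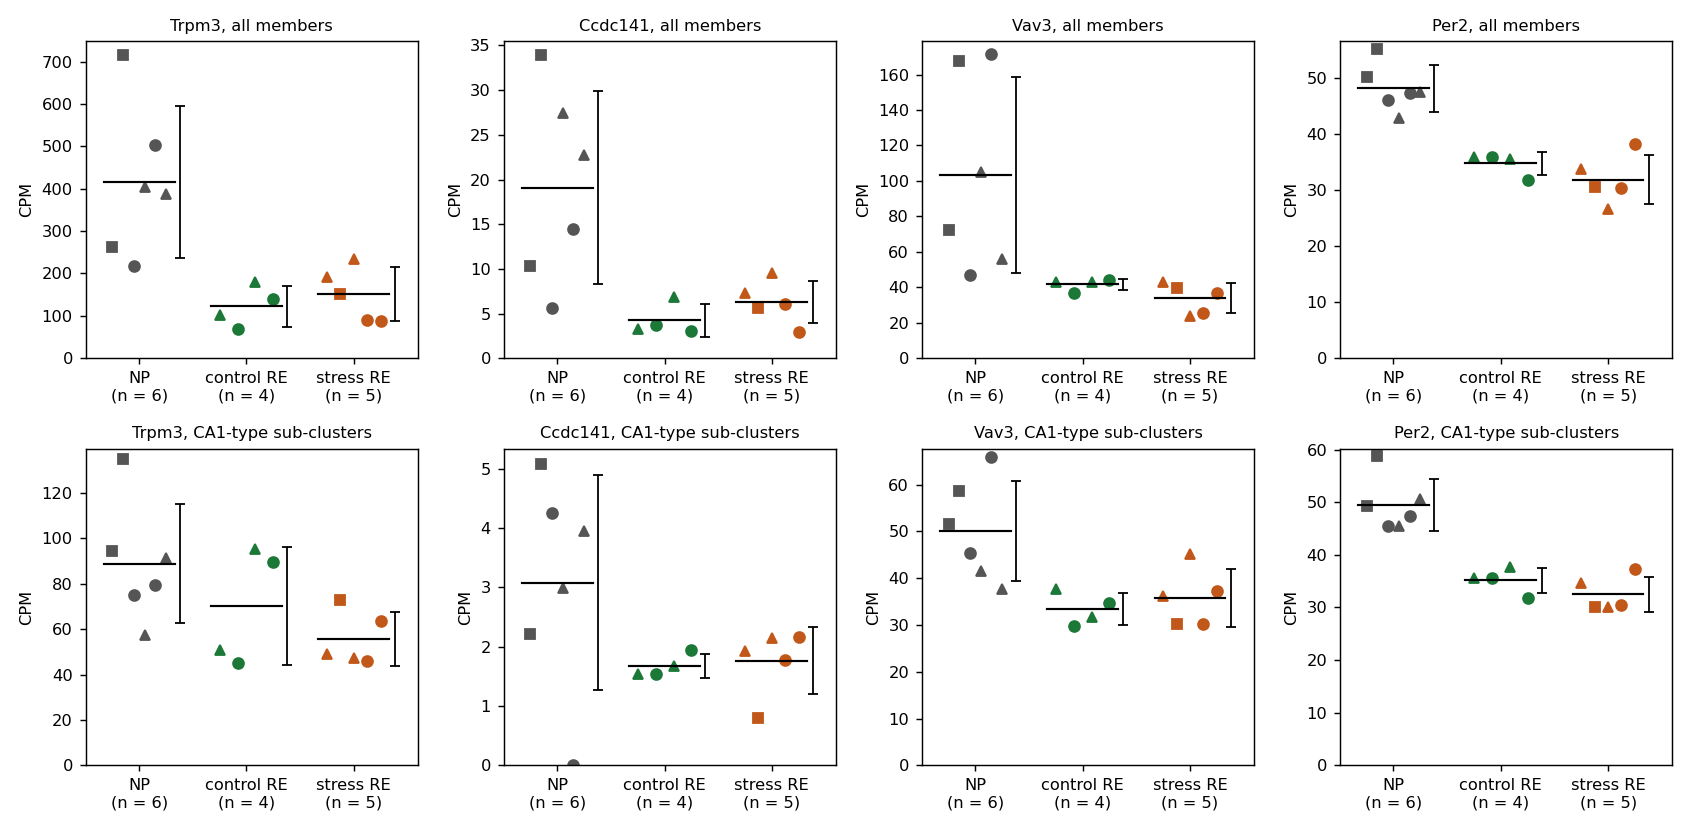
Level of Trpm3, Ccdc141, Vav3 and Per2 (CPM) per mouse in the 3 groups, over all members (top) and over the CA1-type nuclei (bottom). Trpm3 in NP has a mean of 415 CPM on top and 88.8 CPM below, while Per2 in NP has 48.1 and 49.5 CPM.

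Other genes with the smallest p did not pass either. In control RE against NP, Dusp7, a phosphatase of ERK, had a log2 fold change of -0.48 over all members and -0.58 over the CA1-type nuclei. Mlec, a lectin gene of the endoplasmic reticulum, had -0.54 and -0.55. In stress RE against control RE, the smallest p was that of Terf2ip, a gene of a telomere protein (log2 fold change 0.36, SE 0.109, unadjusted p = 0.00409, adjusted p = 1.00 by edgeR).

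No member of the pathway lists passed the test, and the lists are given by their counts and medians beside the median log2 fold change over all genes tested. That median was -0.00254 for control RE against NP, -0.00229 for stress RE against control RE and -0.0106 for stress RE against NP. Over the CA1-type nuclei it was -0.00252, -0.0057 and -0.0137 in the same order. Of the 15 immediate early genes tested in stress RE against NP, 5 were higher and 10 lower, with a median log2 fold change of -0.26, and over the CA1-type nuclei the median was -0.38 (14 genes tested). In control RE against NP the medians of that list were -0.01 over all members and -0.14 over the CA1-type nuclei. Markers of other cell types, none past the test, also shifted in stress RE against NP. The 6 cortical excitatory markers had 3 higher and 3 lower, with a median of 0.35, and of 0.07 over the CA1-type nuclei (5 tested). The 4 thalamic and habenular markers were all lower, with a median of -1.80, and of -1.21 over the CA1-type nuclei (3 tested). Of the 11 glucocorticoid-responsive genes in control RE against NP, 3 were higher and 8 lower, with a median log2 fold change of -0.28, and over the CA1-type nuclei the median was -0.18 (10 genes tested). In stress RE against NP 3 were higher and 8 lower, with a median of -0.21, and of -0.16 over the CA1-type nuclei (3 higher and 7 lower). In stress RE against control RE the list had 4 higher and 7 lower, with a median of -0.04, and a median of 0.02 over the CA1-type nuclei (6 higher and 4 lower). Its member Fkbp5, a chaperone of the glucocorticoid receptor, was at 42 ± 5.06 CPM for the stress RE mice and 53.9 ± 9.13 CPM for the control RE mice, with unadjusted p = 0.0316 and adjusted p = 1.00 by edgeR.

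Of the 21 glutamate receptor genes in control RE against NP, 16 were higher and 5 lower, with a median log2 fold change of 0.11, and of 0.08 over the CA1-type nuclei (12 higher and 7 lower). Of the 29 genes of postsynaptic signalling, 12 were higher and 17 lower, with a median log2 fold change of -0.04, and of -0.02 over the CA1-type nuclei (12 higher and 17 lower). Of the 12 GABA-A receptor subunits, 9 were higher and 3 lower, with a median log2 fold change of 0.12, and of 0.16 over the CA1-type nuclei (10 higher and 1 lower). Of the 28 potassium and HCN channel genes, 16 were higher and 12 lower, with a median log2 fold change of 0.07, and of 0.08 over the CA1-type nuclei (18 higher and 10 lower). Of the 21 synaptic adhesion genes, 14 were higher and 7 lower, with a median log2 fold change of 0.08, and of 0.05 over the CA1-type nuclei (13 higher and 8 lower). In stress RE against control RE that list had 6 higher and 15 lower, with a median of -0.05, and a median of 0.01 over the CA1-type nuclei (12 higher and 9 lower).

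Wfs1, a CA1 marker that the rule did not use, did not pass the test either, at 53.4 ± 13.1, 45.4 ± 23.9 and 48.2 ± 13.8 CPM for NP, control RE and stress RE mice. Whether the groups differed more in CA1 than in CA3 was tested by a region-by-group term with the mouse as a block. Of 14739 genes, 0 passed in each of the 3 comparisons by edgeR, and 3.31%, 2.29% and 3.98% had an unadjusted p under 0.05. With no filter on low counts, which tests more genes and lets in those of very few UMIs, the same test called 22, 0 and 31 genes. The levels of these genes are not given here, and no difference between CA1 and CA3 is read from them. With the CA1-type nuclei in place of all members the count was again 0 of 14201 genes in each, with 4.02%, 3.47% and 4.67% at an unadjusted p under 0.05.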

How the data were processed

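Nuclei of the dHF of 15 mice were profiled with 10x 3′ v3.1 chemistry. The authors deposited filtered matrices of raw UMI counts, 1 per mouse over 32285 genes, aligned to mm10 with Cell Ranger (7.1.0 in the submitters' processing notes, 7.0.0 in the file headers). The authors' ambient correction, doublet removal and integration are not applied to these counts. Libraries held 5789 to 12738 barcodes and 40602582 to 96211264 UMIs.

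Groups and batches came from the labels. Members were clustered with scanpy 1.11.5 (1000 variable genes, 20 components, 15 neighbours, Leiden resolution 0.5, libraries not joined). Doublets were the barcodes with the highest Scrublet scores in each library, at a preset rate of 0.8% per 1000 barcodes. Gene counts were summed per mouse and tested with edgeR 4.0.16 (filterByExpr, TMM, quasi-likelihood test, 3 groups in 1 fit, Benjamini-Hochberg adjustment over all genes), with DESeq2 1.42.0 as an alternative, in R 4.3.3. Shares and UMIs were tested by two-sided exact permutation over mice (scipy 1.17.1). The scripts were tested on simulated data. Intervals cover counting error only. The p-values set a group difference against the spread between mice. In the CA1 against CA3 test, which has the mouse as a block, that is the spread of the difference between regions within a mouse.

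Genes named in a comparison were the 10 with the smallest p at a mean of at least 10 CPM, a few members of each list and fixed genes; sub-clusters are named by the genes with the largest fold at 20 CPM or more. The genes shown for the classes were chosen from the lists after their values were seen. Alternatives changed the tool, scaling, filter, batch term, denominator, depth, doublets, rule and mice. The members and lists were chosen with earlier results of these data known. Coordinates are those of GRCm38.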

Additional observations from a re-analysis of the deposited data

Results flagged for a closer look

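In 21 groups of values by mouse, with the genes of the rule left out, 1 held a mouse whose distance from its group passed Dixon's 95% limit, where chance gives about 1 in 20. In control RE mouse 87, nuclei that met the rule made up 1.70% of nuclei with at least 1000 genes, against 4.35% to 4.68% in the other 3 control RE mice, and 47% of its members were CA1-type.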

How the results depend on the processing

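The difference in the share of members between control RE and NP changed sign with nuclei thinned to 5000 UMIs (-0.208 percentage points, with 17 to 107 members a mouse), with at least 5 UMIs of Fibcd1 plus Mpped1 (-0.177) and with Fibcd1 alone at 2 UMIs or more (-0.268). The cause was not tested. Leaving out each mouse gave 0.460 to 1.51 points for control RE against NP (highest without control RE mouse 87, exact permutation p = 0.0238), 0.143 to 1.89 for stress RE against control RE and 0.956 to 2.70 for stress RE against NP. The difference in UMIs per nucleus between stress RE and NP was -1274 within batches 2 and 3, -599.8 without NP mouse 31 and -403 without stress RE mouse 43. Leaving out each mouse gave -3104 to -1314 UMIs for control RE against NP, 1800 to 3831 for stress RE against control RE (highest without stress RE mouse 75, exact permutation p = 0.0286) and -599.8 to 1628 for stress RE against NP. Both p-values given for a left-out mouse are unadjusted and are the smallest that the remaining mice allow. DESeq2 called 3 genes for control RE against NP (Ccdc141, Trpm3 and D130009I18Rik) and 1 for stress RE against NP (Vav3), where edgeR called 0 of each. With no filter on low counts, and so with genes of very few UMIs let in, the CA1 against CA3 test called 22 genes for control RE against NP and 31 for stress RE against NP. By edgeR the counts of genes were 0 without any one mouse, in each comparison, and DESeq2 was not run with mice left out. Leaving out sub-cluster 10 or all sub-clusters of other classes was chosen after seeing the data. The gene tests rest on 4 to 6 mice a group and 101 to 586 nuclei a mouse, which bounds their precision.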
